A study of Homo sapiens with 32 samples.

Results

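The AP-1 and immediate early genes studied here were FOS, FOSL1, JUN, JUNB, JUND, ATF3, EGR1, KLF4, KLF6 and DUSP1, described by their peaks of N6-methyladenosine (m6A) in PANC-1 cells. PANC-1 is an established human pancreatic ductal adenocarcinoma line. The 10 genes were chosen by name, and a peak belonged to a gene if it shared at least 1 base with the gene's hg19 interval. This gave 108 of the 424904 peak lines in the 3 lists. Joined where they overlapped on a gene, these lines formed 22 sites, against 174376 sites over the genome. The lists compare control cells with cells labelled as knockouts of CFL1, the actin-severing protein cofilin 1, or of METTL3, the enzyme that places m6A on messenger RNA. Each list joins 2 separately called libraries of total RNA, fragmented and captured with an m6A antibody, and the labels list 2 input samples beside them. The numbers in the peak names tell the libraries apart, 1 and 2 in control and 3 and 5 in either knockout. The sources used here do not give how the knockouts were made or whether a line is 1 clone, and peak lists do not measure the level of CFL1, METTL3 or cell type markers, so they do not check the labels.

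Immediate early genes are transcribed within minutes of a growth or stress signal, without new protein synthesis, and their messages are short-lived. The JUN and FOS proteins pair through leucine zippers to form AP-1, which binds DNA at its target genes downstream of MAP kinase signalling. EGR1 and the KLF proteins are zinc finger transcription factors, and DUSP1 is a phosphatase that switches MAP kinases off. m6A is read by proteins that can shorten the life of a message, and it lies mostly in long exons and near stop codons.

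Nearly every gene was covered in every library. Control 1 held 18 member peaks and control 2 held 23, CFL1 knockout 3 and 5 held 18 and 16, and METTL3 knockout 3 and 5 held 17 and 16. METTL3 knockout 3 had peaks on 9 of the genes and each other library on all 10, so FOS alone had a different set of libraries from the rest. Of the 22 sites, 12 were found in all 6 libraries, against 10.8% of all sites. The member peaks were wider and of higher −log10 q than most, but not of higher fold in every group. By library their median −log10 q was 54.1 to 109, against 7.52 to 11.3 over all peaks, and their median width 620 to 864.5 bp, against 331 to 364 bp. Their median fold was below that of all peaks in control (3.55 against 4.15 and 3.60 against 3.93) and in CFL1 knockout libraries (2.90 against 4.62 and 3.25 against 4.75), and above it in METTL3 knockout libraries (5.30 against 4.66 and 7.17 against 4.75). Of the 10 member sites whose strongest peak reached a −log10 q of 100, all 10 were found in all 6 libraries, against 86% of all sites of that strength. No member site was held by both control libraries and missing from both CFL1 knockout libraries, against 14.8% of all sites (2.22% at a −log10 q of at least 100). No member site met the same rule for the METTL3 knockout, against 14.7% (1.36% at that strength). A site at the start of EGR1 was the 1 member site in both CFL1 knockout libraries and neither control library, against 8.45% of all sites. For the METTL3 knockout there were 3 such sites, on EGR1 and KLF6, against 8.4%. None of these gained sites had a −log10 q of 100, a strength at which 5.86% and 6.08% of all sites were gained in the CFL1 and the METTL3 knockout. Counted by peak summits widened by 100 bp on each side, the picture was different, as described after the genes.

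**Figure D1:**
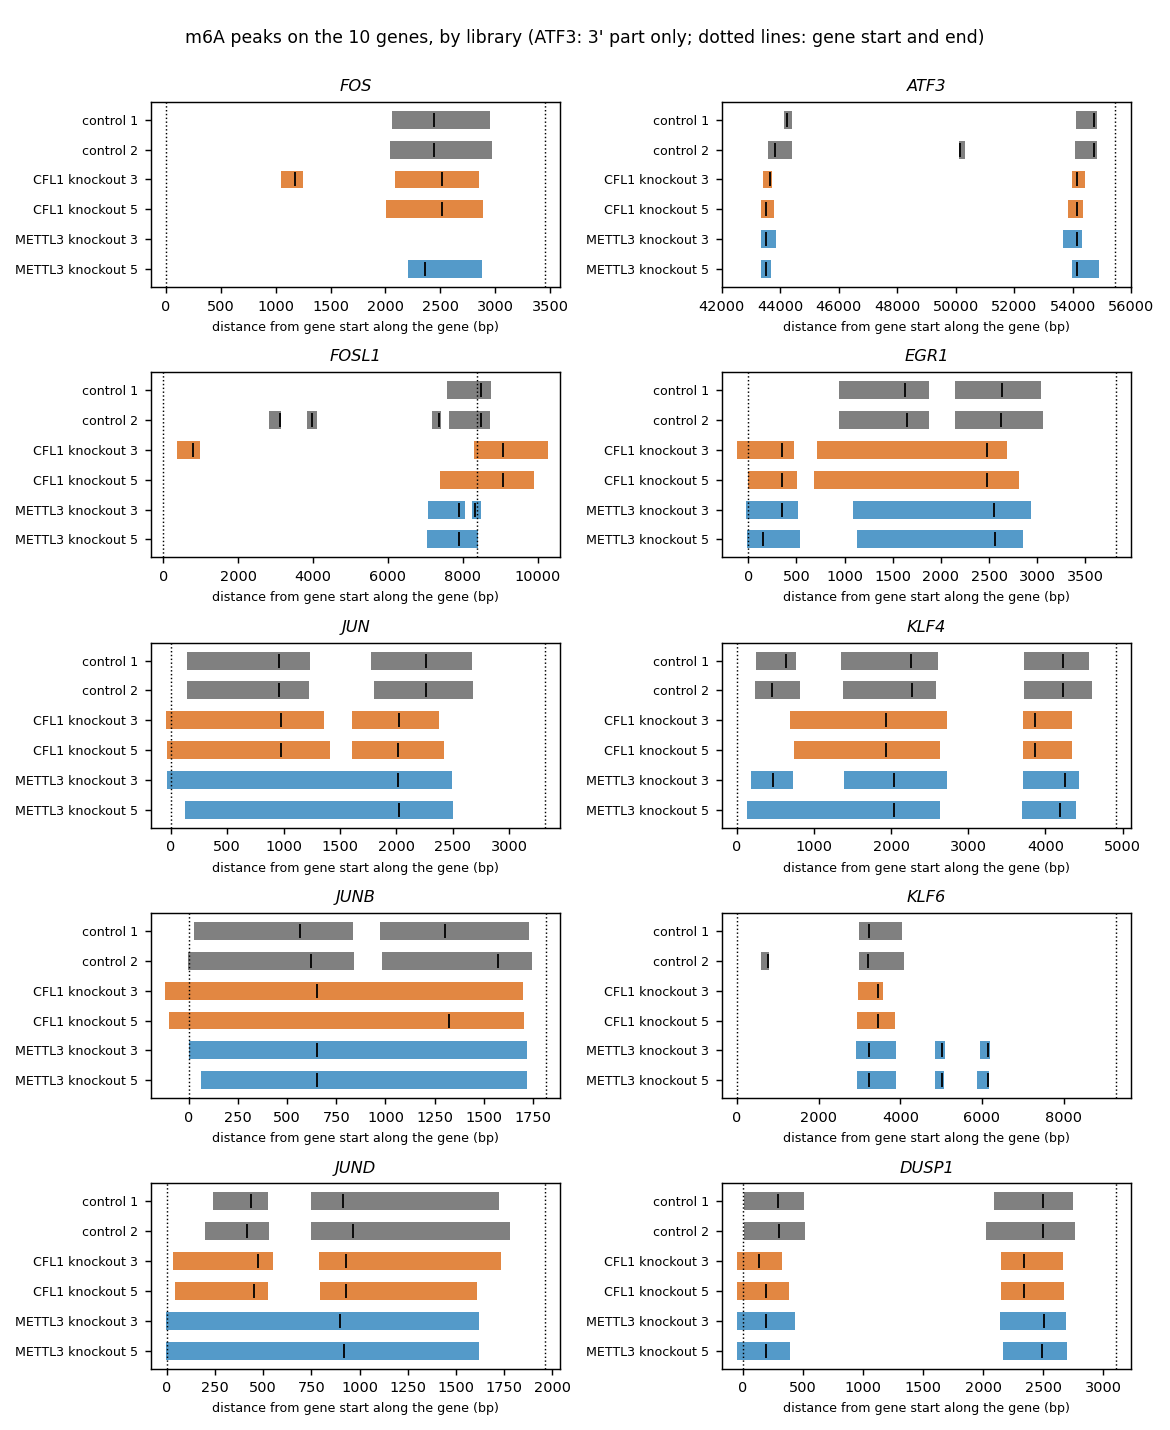
Peaks on each gene by library, drawn against the distance from the gene start in bp along the direction of transcription, with dotted lines at the gene start and end and ticks at the summits. Grey bars are control, orange bars CFL1 knockout and blue bars METTL3 knockout; in JUNB the control libraries have 2 peaks where each knockout library has 1.

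A peak's fold enrichment is the ratio to background that the peak caller gives at the summit, and −log10 q is its significance, which also grows with the number of reads. Both are the authors' deposited values, and the number of reads behind them is unknown. RNA levels were not examined here, so a different peak is not by itself a different degree of methylation. With 2 against 2 libraries an exact two-sided permutation test cannot give a p under 0.33, so differences are described by whether the libraries of the groups overlapped. Whether a group's libraries come from separate cultures is not stated, so their spread may be technical.

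Among the 12 sites found in all 6 libraries, the highest fold of both METTL3 knockout libraries lay above both control libraries at 7 sites, against 43.5% of all sites found in all 6 libraries, and below at 3, against 20%. The site at the 3′ end of FOSL1, 1 of these 3, turned to above control when overlapping peaks outside the gene were included, as they are in the sites of the genome, which gave 8 above and 2 below. For the CFL1 knockout, 1 site lay above (34% of all sites) and 5 lay below (26.4%). At 2 sites, JUNB and the 3′ site of DUSP1, the CFL1 knockout libraries lay below and the METTL3 knockout libraries above control (3.44% of all sites), and the opposite was seen at 0 (1.13%). Among the 10 strong sites, those that reached a −log10 q of 100, the METTL3 knockout was above control at 5 (48.2% of all such sites) and below at 3 (20.4%). The CFL1 knockout was above at 1 (33.5%) and below at 5 (31.8%), with the same 2 sites divided between knockouts (4.53%) and 0 in the opposite way (0.653%). The median log2 ratio of mean fold, METTL3 knockout over control, was 0.61 over the 12 sites and 0.30 over all such sites. For the CFL1 knockout it was -0.23 over the 12 sites and 0.13 over all. Over all strong sites found in all 6 libraries it was 0.35 for the METTL3 knockout and 0.05 for the CFL1 knockout. The member values are descriptions of a small set, and both ratios share the control libraries. The highest fold of a site can come from peaks at different positions in different libraries, as on JUN, JUNB and ATF3.

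**Figure D2:**
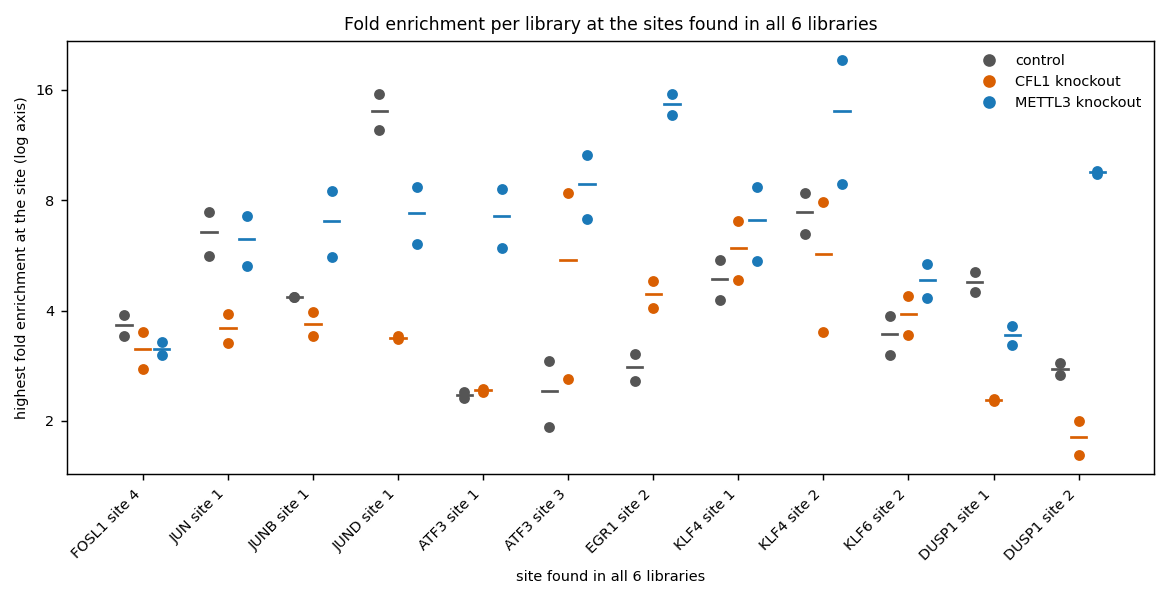
Highest fold enrichment at each of the 12 sites found in all 6 libraries, on a log axis, with 1 point per library and a line at the mean of 2 libraries. Sites are numbered along each gene from its start; EGR1 site 2 runs from 2.57 in control 1 to 15.6 in METTL3 knockout 3, and at JUND the control libraries are the highest.

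JUN, JUNB and JUND encode the AP-1 subunits that can pair with each other or with FOS proteins, and all are intronless genes. JUN is on the minus strand of chromosome 1, and its peaks formed 1 site at 59247109 to 59249829 (hg19, as for all site positions). In control JUN carried a peak in the 5′ part and a stronger one in the 3′ part, whose −log10 q was 212 in control 1 and 335 in control 2. In the CFL1 knockout the 2 peaks were also called, and the 3′ peak had a −log10 q of 159 in library 3 and 164 in library 5. In the METTL3 knockout 1 peak spanned both positions, 2524 bp wide with a −log10 q of 298 in library 3 and 2375 bp wide with 372 in library 5. The highest fold on JUN was 5.63 and 7.44 in control, 3.26 and 3.91 in the CFL1 knockout, and 5.30 and 7.23 in the METTL3 knockout. In highest fold the CFL1 knockout libraries were thus below both control libraries, at 0.549 times the control mean, while the METTL3 knockout libraries overlapped control. The control values came from the 3′ peak and the CFL1 knockout values from the 5′ peak. At the 3′ peak the CFL1 knockout fold was 3.20 and 3.15, also below control. At the 5′ peak it was 3.26 and 3.911, against 3.70 and 3.915 in control, with overlap. The −log10 q of the 5′ peak was 94.0 and 128 in control and 108 and 175 in the CFL1 knockout. The JUN peak of METTL3 knockout 5 ranked above 99.5% of the peaks of its library.

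The 3′ summit of JUN lay 2264 and 2261 bp from the gene start in control 1 and 2, 2021 and 2018 bp in CFL1 knockout 3 and 5, and 2019 and 2020 bp in METTL3 knockout 3 and 5. Every knockout summit was thus closer to the gene start than both control summits, within 3 bp of the other knockout summits. The 5′ summit, at 961 and 960 bp in control and 979 and 975 bp in the CFL1 knockout, lay at nearly the same place.

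JUNB is on the plus strand of chromosome 19, and its peaks formed 1 site at 12902191 to 12904051. Both control libraries called 2 peaks on it, and all 4 knockout libraries called 1 wide peak, between 1658 and 1818 bp, over nearly the whole gene. The peaks covered 87.2% ± 1.32 of the gene in control cells, 93.7% ± 0.195 in CFL1 knockout cells, and 92.9% ± 2.26 in METTL3 knockout cells (SD, n = 2). The highest fold was 4.36 and 4.37 in control cells, 3.41 and 3.96 in CFL1 knockout cells, and 5.61 and 8.46 in METTL3 knockout cells. In this highest fold the groups did not overlap, with the CFL1 knockout lowest and the METTL3 knockout highest. The control values came from different peaks, with summits 564 bp from the gene start in control 1 and 1570 bp in control 2. The other control peak had a fold of 3.29 in control 1 and 3.60 in control 2. With these the CFL1 knockout overlapped control, and the METTL3 knockout was still above it. The strongest −log10 q was 167 and 168 in control cells, 134 and 192 in CFL1 knockout cells, and 148 and 166 in METTL3 knockout cells. The CFL1 knockout overlapped control in −log10 q, while the METTL3 knockout lay below control in −log10 q and above it in fold. In the GRCh38 RefSeq annotation HOOK2 overlaps JUNB, and the peaks carry no strand, so part of the signal may belong to the other gene, which was not tested.

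JUND is on the minus strand of chromosome 19, with 1 site at 18390688 to 18392469, and had the highest control fold of the 10 genes. Its main peak had a fold of 12.5 and 15.6 in control cells, 3.40 and 3.35 in CFL1 knockout cells, and 6.08 and 8.70 in METTL3 knockout cells. Both knockouts lay below both control libraries, at 0.240 times the control mean in the CFL1 knockout and 0.526 times in the METTL3 knockout. Its −log10 q did not follow the fold. It was 198 and 282 in control cells, 128 and 149 in CFL1 knockout cells, and 290.04 and 388 in METTL3 knockout cells, so the METTL3 knockout was lower than control in fold and higher in −log10 q. A weaker peak near the gene start had a −log10 q of 16.9 and 24.4 in control and 9.74 and 13.6 in CFL1 knockout cells. Both METTL3 knockout libraries held it as part of 1 peak of 1625 and 1622 bp that ran over both positions. The main summit lay between 899 and 965 bp from the gene start in all 6 libraries.

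JUN, JUNB and JUND belonged to a group of 5 member sites with at least 2 peaks in both control libraries, together with a site each on EGR1 and KLF4. Both METTL3 knockout libraries held 1 peak at 4 of the 5 (JUN, JUNB, JUND and EGR1), against 35.4% of all such sites. Both CFL1 knockout libraries held 1 peak at 3 of the 5 (JUNB, EGR1 and KLF4), against 31.5%. On KLF4 this 1 peak did not reach the summits of the control peak near the gene start, so it did not span both control peaks.

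FOS and FOSL1 encode AP-1 subunits that bind DNA as partners of JUN proteins. FOS, on the plus strand of chromosome 14, had 1 main site in its 3′ part, at 75747486 to 75748453. The −log10 q was 67.8 and 91.9 in control, 37.0 and 51.1 in the CFL1 knockout and 3.82 in METTL3 knockout 5, and METTL3 knockout 3 listed no peak on FOS. The −log10 q was thus highest in control, lower in the CFL1 knockout and lowest in the METTL3 knockout library with a peak, with no overlap between libraries of different groups. The fold did not show that order. It was 2.51 and 2.65 in control, 2.45 and 2.81 in the CFL1 knockout and 4.56 in METTL3 knockout 5, so the weakest call in −log10 q had the highest fold. That call ranked above 22.7% of the peaks of its library, against 90.2% and 91.0% for the control peaks. With peaks of a −log10 q of at least 5, FOS was the 1 member site lost in the METTL3 knockout. CFL1 knockout 3 alone held a further peak, 1048 to 1247 bp from the gene start, with a −log10 q of 23.0.

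FOSL1, the gene of the AP-1 subunit FRA1, is on the minus strand of chromosome 11, and its peaks gathered in a site at its 3′ end, at 65657725 to 65660946. There the strongest −log10 q was 139 and 219 in control cells, 199.8 and 161 in CFL1 knockout cells, and 95.03 and 91.1 in METTL3 knockout cells. The METTL3 knockout libraries lay below the other 4, while control and the CFL1 knockout overlapped. This order holds for peaks on the gene and is not given with overlapping peaks outside it. The fold was 3.40 and 3.89 in control cells, 3.49 and 2.78 in CFL1 knockout cells, and 3.03 and 3.28 in METTL3 knockout cells. With the overlapping peaks outside the gene, the highest fold in METTL3 knockout cells was 5.33 and 6.60, above control in place of below, and the other 4 values were the same. The summits set the groups apart. They lay 8486 bp from the gene start in both control libraries and 9085 and 9080 bp in the CFL1 knockout, all past the gene's end at 8391 bp, and 7888 and 7889 bp, inside the gene, in the METTL3 knockout. The nearest gene in the RefSeq annotation, CCDC85B, lies 414 bp away, so the control and CFL1 knockout values may in part belong to it, which was not tested. The 3 weak sites elsewhere on FOSL1 were each found in 1 library, with a −log10 q between 4.73 and 14.1.

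ATF3, a stress-induced bZIP factor that pairs with JUN proteins, is on the plus strand of chromosome 1 and had the weakest peaks of the set in control. Its strongest control peaks had a −log10 q of 7.57 and 31.8 and lay near the 3′ end, in the site at 212792354 to 212793566. There the CFL1 knockout had 7.27 in library 3 and 60.7 in library 5, and the METTL3 knockout 86.8 and 61.0. The fold at this site was 1.92 and 2.91 in control cells, 2.60 and 8.40 in CFL1 knockout cells, and 10.6 and 7.11 in METTL3 knockout cells. Both METTL3 knockout libraries were above control, at 3.67 times the control mean, whereas the CFL1 knockout libraries overlapped control. The summit lay at 54733 and 54725 bp in control and between 54149 and 54157 bp in all 4 knockout libraries, closer to the gene start. Another ATF3 site, at 212782027 to 212783076, had a fold of 2.30 and 2.40 in control cells, 2.44 and 2.40 in CFL1 knockout cells, and 5.93 and 8.61 in METTL3 knockout cells. There too the METTL3 knockout libraries lay above the other 4, although no −log10 q passed 15.0. The control 1 peak, at 212782817 to 212783061, overlapped no knockout peak and was joined into the site only by the control 2 peak.

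EGR1, a zinc finger factor that MAP kinase signalling induces within minutes, is on the plus strand of chromosome 5, with its main site at 137801860 to 137804238. EGR1 had the largest ratio of the METTL3 knockout to control among the 12 sites found in all 6 libraries. At its main site the highest fold was 2.57 and 3.05 in control cells, 4.07 and 4.82 in CFL1 knockout cells, and 15.6 and 13.6 in METTL3 knockout cells. This was 2.81 ± 0.341, 4.44 ± 0.533 and 14.6 ± 1.40 (SD, n = 2), or 1.58 times control in the CFL1 knockout and 5.20 times in the METTL3 knockout. No library of a knockout overlapped control, and EGR1 was the 1 site above control in the CFL1 knockout. The strongest −log10 q was 90.9 and 149 in control cells, 179.5 and 242 in CFL1 knockout cells, and 246 and 199.5 in METTL3 knockout cells, so both knockouts were above control there as well. Control called 2 peaks, with summits near 1623 and 2631 bp in control 1, and each knockout library 1 peak of 1724 to 2134 bp with a summit between 2477 and 2565 bp.

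The start of EGR1 held a separate site, at 137801059 to 137801719, that all 4 knockout libraries called and that was missing in control. Its −log10 q was 45.7 and 44.3 in the CFL1 knockout and 8.22 and 20.4 in the METTL3 knockout. Its fold was 2.33 and 2.40 in the CFL1 knockout and 3.31 and 7.39 in the METTL3 knockout. EGR1 was covered by peaks over 48.0% ± 0.370 in control cells, 66.6% ± 3.62 in CFL1 knockout cells, and 60.4% ± 1.78 in METTL3 knockout cells (SD, n = 2).

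KLF4, a zinc finger factor known for its part in reprogramming and epithelial differentiation, is on the minus strand of chromosome 9. Its strongest site, in the 3′ part at 110247446 to 110248352, had a −log10 q of 213 and 239 in control cells, 27.5 and 99.0 in CFL1 knockout cells, and 114 and 149 in METTL3 knockout cells. All 4 knockout libraries were below both control libraries in −log10 q. In fold the order was another, at 8.37 and 6.47 in control cells, 3.51 and 7.90 in CFL1 knockout cells, and 8.85 and 19.3 in METTL3 knockout cells. The CFL1 knockout overlapped control and the METTL3 knockout lay above it. The summit was 4230 bp from the gene start in both control libraries, 4251 and 4194 bp in the METTL3 knockout, and 3868 and 3863 bp in the CFL1 knockout. A site in the 5′ part, at 110249321 to 110251917, had a highest fold of 5.51 and 4.26 in control cells, 4.84 and 7.01 in CFL1 knockout cells, and 8.67 and 5.45 in METTL3 knockout cells, with overlap between the groups. Near its start, control 1 and 2 and METTL3 knockout 3 held a separate peak with a −log10 q of 25.3, 40.4 and 3.99. In METTL3 knockout 5 this stretch was part of the larger peak. The summit of the separate peak lay 632 and 449 bp from the gene start in control. The CFL1 knockout peaks began past it, at 687 and 737 bp.

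KLF6, a zinc finger factor described as a tumour suppressor, is on the minus strand of chromosome 10, with its main site at 3823394 to 3824547. The fold was 3.03 and 3.87 in control cells, 3.44 and 4.37 in CFL1 knockout cells, and 4.34 and 5.35 in METTL3 knockout cells, so that the CFL1 knockout overlapped control and the METTL3 knockout lay above it. The −log10 q was 126 and 218 in control, 154 and 226 for CFL1 and 122 and 144 for METTL3, so that both knockouts overlapped control and the METTL3 knockout lay below the CFL1 knockout. Further along the gene, 2 weak sites were found in both METTL3 knockout libraries and in none of the other 4. The site at 3822387 to 3822613 had a −log10 q of 20.9 and 17.6, and the site at 3821271 to 3821595 had 15.9 and 3.44. Control 2 alone held a site 583 to 794 bp from the gene start, with a −log10 q of 25.7.

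DUSP1, the phosphatase that removes phosphate from MAP kinases and so limits the signal that induces it, is on the minus strand of chromosome 5. DUSP1 had a 5′ site at 172197691 to 172198256 and a 3′ site at 172195437 to 172196179, both found in all 6 libraries. At the 5′ site the fold was 5.11 and 4.50 in control cells, 2.27 and 2.29 in CFL1 knockout cells, and 3.23 and 3.64 in METTL3 knockout cells. The −log10 q there was 206 and 217 in control cells, 68.9 and 75.1 in CFL1 knockout cells, and 35.8 and 43.2 in METTL3 knockout cells. Both measures were lower in both knockouts without overlap, and the fold was 0.475 and 0.715 times control. At the 3′ site the knockouts parted. The fold was 2.68 and 2.88 in control cells, 1.62 and 1.996 in CFL1 knockout cells, and 9.64 and 9.41 in METTL3 knockout cells, or 0.650 and 3.43 times control. The −log10 q at the 3′ site was 111 and 157 in control cells, 13.3 and 29.5 in CFL1 knockout cells, and 193 and 155 in METTL3 knockout cells. It was lower in the CFL1 knockout, whereas the METTL3 knockout overlapped control. In the METTL3 knockout the stronger peak of DUSP1 was thus the 3′ one, and in control and the CFL1 knockout the 5′ one.

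**Figure D3:**
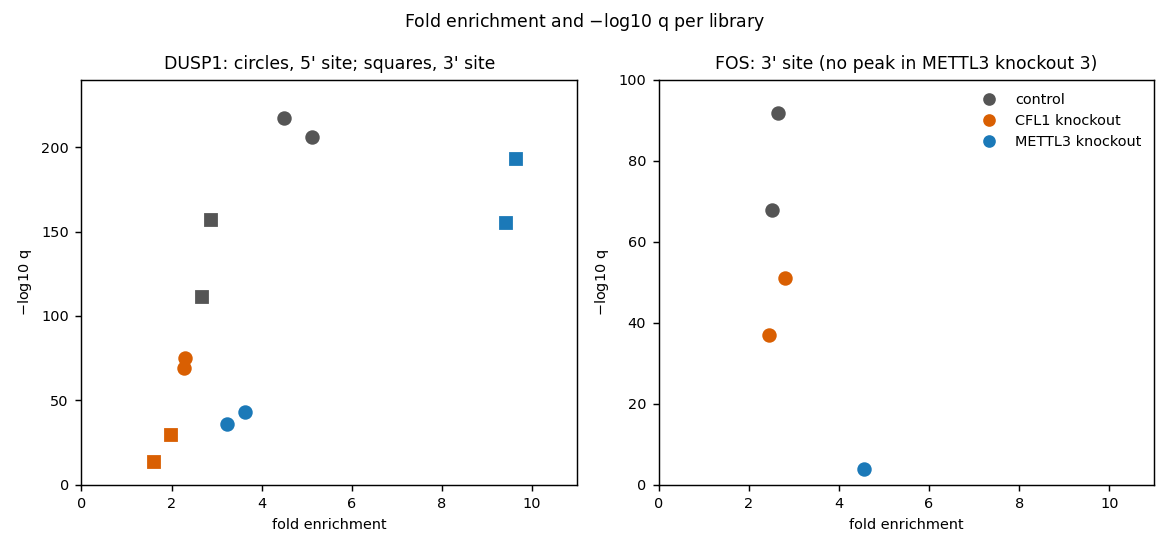
Fold enrichment against −log10 q for each library at the 5′ site (circles) and the 3′ site (squares) of DUSP1 on the left, and at the 3′ site of FOS on the right, coloured by group. The METTL3 knockout points of the DUSP1 3′ site lie at a fold of 9.41 and 9.64, and the METTL3 knockout point of FOS combines the highest fold, 4.56, with the lowest −log10 q, 3.82.

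On some of the genes knockout peaks reached nearer to the gene start than control peaks, and on KLF4 those of the CFL1 knockout began farther from it. The position of the peak edge nearest the start is given here in bp from the first base of the gene, with negative values before it. On DUSP1 the edge was at 9 in both control libraries, at -52 and -53 in the CFL1 knockout libraries and at -52 and -50 in the METTL3 knockout libraries. On EGR1 it was at 943 and 944 in control, at -122 and -7 in the CFL1 knockout libraries and at -21 and -17 in the METTL3 knockout libraries. On both genes every knockout edge lay before the start and every control edge inside the gene. On JUN the edge was at 140 and 143 in control, at -44 and -35 in the CFL1 knockout libraries, and at -33 in METTL3 knockout 3 but at 126 in METTL3 knockout 5. On JUNB it was at 27 and -4 in control, at -119 and -101 in the CFL1 knockout libraries and at 1 and 61 in the METTL3 knockout libraries. On JUND it was at 238 and 199 in control, at 35 and 41 in the CFL1 knockout libraries and at -3 and -2 in the METTL3 knockout libraries. On JUNB both CFL1 knockout edges thus lay before both control edges while the METTL3 knockout overlapped control, and JUND edges were nearer the start in all 4 knockout libraries. On KLF4 the edge was at 244 and 237 in control, at 687 and 737 in the CFL1 knockout libraries, farther from the start, and at 176 and 130 in the METTL3 knockout libraries, nearer to it. On FOS, FOSL1, ATF3 and KLF6 no edge lay closer than 371 bp to the start. By library, the edge was at or before the start on no gene in control 1 and 1 gene in control 2, against 4, 4, 4 and 3 genes in CFL1 knockout 3 and 5 and METTL3 knockout 3 and 5. How often this happened over all genes was not computed, since hg19 gene models were not used here.

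**Figure D4:**
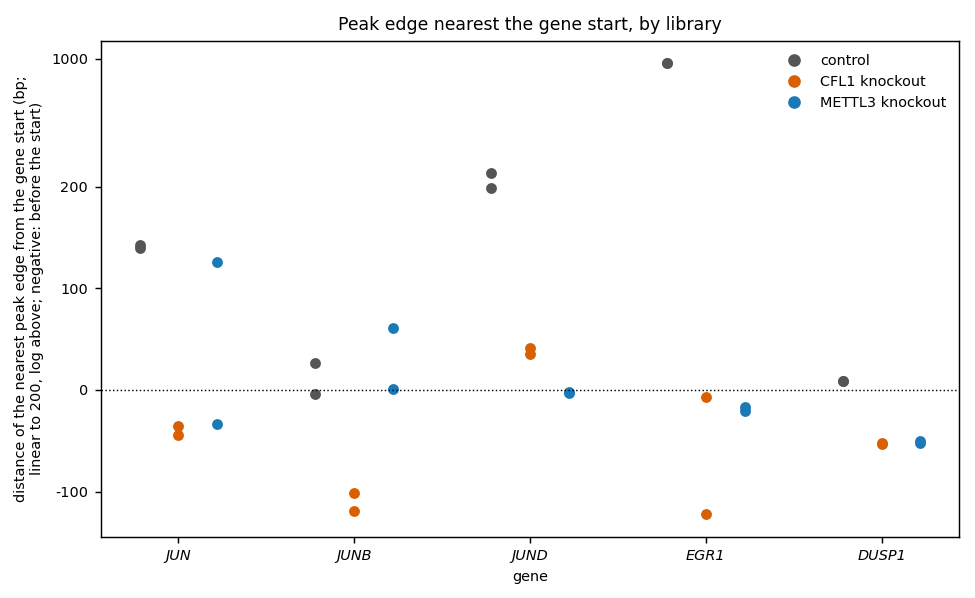
Distance in bp of the peak edge nearest the gene start, by library, for the 5 genes on which a peak reached the start in at least 1 library; the axis is linear up to 200 bp and log above, and negative values lie before the start. On DUSP1 and EGR1 all 4 knockout libraries lie below 0 and both control libraries above.

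Knockout peaks ran before the starts of EGR1, DUSP1, JUNB, JUN and JUND. On JUNB these were CFL1 knockout peaks and none of the METTL3 knockout, and the peak of control 2 ran before the start too. Shown as examples are the bases before the starts of EGR1, DUSP1 and JUNB. They are the 250 bases before the RefSeq gene start in GRCh38.p14, at chr5:138465229-138465478 on the plus strand for EGR1, chr5:172771196-172771445 on the minus strand for DUSP1 and chr19:12791236-12791485 on the plus strand for JUNB. The gene models of the 2 builds differ in length (3824 and 3825 bp for EGR1, 3111 and 3100 bp for DUSP1, 1816 and 1830 bp for JUNB), so the starts need not be the same base. Of the 10 genes, 9 were found in the RefSeq promoter table. Capitals mark matches on either strand to 5 patterns. They were the CArG box (the core of the serum response element), TGACGTCA (the cyclic AMP response element) and TGACATCA (a variant of the cyclic AMP response element). The others were TATAAA (the TATA box) and TGANTCA, which takes any base at N and so is wider than the AP-1 site. None of these matches overlapped another.
EGR1: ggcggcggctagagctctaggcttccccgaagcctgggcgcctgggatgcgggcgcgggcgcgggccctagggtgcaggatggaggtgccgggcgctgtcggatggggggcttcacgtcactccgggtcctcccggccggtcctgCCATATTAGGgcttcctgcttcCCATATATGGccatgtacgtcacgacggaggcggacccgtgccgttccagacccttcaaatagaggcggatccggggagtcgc
DUSP1: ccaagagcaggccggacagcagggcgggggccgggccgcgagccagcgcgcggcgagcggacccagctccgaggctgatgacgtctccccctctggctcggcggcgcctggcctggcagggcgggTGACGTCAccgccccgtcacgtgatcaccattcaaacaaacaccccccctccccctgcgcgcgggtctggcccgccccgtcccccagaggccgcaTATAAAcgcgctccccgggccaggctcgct
JUNB: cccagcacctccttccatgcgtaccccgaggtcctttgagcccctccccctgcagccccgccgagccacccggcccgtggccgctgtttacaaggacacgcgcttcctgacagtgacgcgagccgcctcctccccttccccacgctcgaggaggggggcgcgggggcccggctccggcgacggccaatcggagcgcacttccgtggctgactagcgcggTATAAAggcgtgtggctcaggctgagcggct

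EGR1 had 2 matches to the CArG box, 105 to 96 and 83 to 74 bases before the start. It was the 1 gene of the 9 with this motif in the 250 bases searched, and bases farther upstream were not searched. Of the 35116 windows of this length, 1.16% held it. DUSP1 had TGACGTCA 125 to 118 bases before the start, as did JUND further upstream, and 1.65% of the windows held it. TATAAA lay 30 to 25 bases before the start of DUSP1, 31 to 26 before that of JUNB and 33 to 28 before that of FOS. ATF3 had 2 windows and held it in 1 of them, farther off, 230 to 225 bases before the start. Thus 4 of the 9 genes, which had 10 windows together, held TATAAA, against 10.7% of all windows. TGACATCA was found in 3 of the 9, JUN, ATF3 and KLF6, against 2.37%. TGANTCA was found in none of the 9, against 6.57%. The matches describe the letters of these windows and not binding.

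Counted by summit windows in place of whole peaks, the 10 genes held 36 windows, and 4 were found in all 6 libraries, on JUND, EGR1 and both ends of DUSP1, against 5.77% of all windows. By this measure 8 windows were in both control libraries and no CFL1 knockout library, against 14.5%, and 6 in both control libraries and no METTL3 knockout library, against 14.5%. There were 6 windows in both CFL1 knockout libraries and no control library, against 9.35%, and 7 in both METTL3 knockout libraries and no control library, against 9.52%. Among the 15 windows whose strongest peak had a −log10 q of at least 100, 4 were lost in the CFL1 knockout (12.9% of all such windows) and 2 in the METTL3 knockout (12.6%), 3 and 2 were gained (18.4% and 19%), and 4 were in all 6 libraries (45%). On JUN, ATF3 and KLF4 a control window and a knockout window lay side by side within 1 site, so that a site kept as a region had another summit. The KLF6 summit lay at 3449 and 3461 bp in the CFL1 knockout and between 3220 and 3240 bp in control and the METTL3 knockout, and the 3′ KLF4 summit divided the groups in the same way. The summits of both knockouts lay apart from the control position at the 3′ summit of JUN and the summit near the 3′ end of ATF3. The same held for the larger peak in the 5′ part of KLF4, and other summits of these genes were shared with control.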

How the data were processed

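Peaks of m6A were analysed in control, CFL1 knockout and METTL3 knockout PANC-1 cells, each with 2 antibody and 2 input samples in the labels. The other 20 of the 32 samples were not analysed here. The submitters' processing notes name STAR, MACS2, bedtools and hg19; the sources used here give no versions or settings, nor how the input was used. Deposited by the authors, per peak, were the interval, the summit, the fold enrichment (a ratio) and −log10 q, which were used as they stand. Read depth is unknown. Groups were taken from sample titles, and libraries from peak names, whose knockout numbers are not the labels' replicate numbers and which carry the letters si.

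Peaks of all libraries were joined into sites where they shared at least 1 base (Python 3.11.15, pandas 2.3.3). Member sites were joined from lines on the genes alone. A site was lost if in both control libraries and in neither library of a knockout, and gained in the opposite case. The script was tested on simulated peaks, with at most 1 peak per library at each site. Split, joined or displaced peaks, as on JUN, JUNB and ATF3, were not simulated. All 10 genes are named, with the strongest site of each and every site lost or gained. The members and lists were chosen with earlier results of these data known. The planned list of other pathway genes and of epithelial markers was not used, since it needed hg19 coordinates. The comparisons of fold, sites called as 1 peak, gene starts, the −log10 q bound of 100 and motifs were added after seeing the data. Alternatives were thresholds of −log10 q and fold, summits, a joining distance, wider gene intervals and leaving out each library.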

Additional observations from a re-analysis of the deposited data

Results flagged for a closer look

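At 2 sites found in all 6 libraries the knockouts lay on opposite sides of control in fold, the CFL1 knockout libraries below and the METTL3 knockout libraries above both control libraries. This pattern was seen at 3.44% of all sites found in all 6 libraries, and the opposite pattern, at 1.13% of them, was seen at no member site. This difference between knockouts was not tested. At the 3′ site of DUSP1 the mean fold of the CFL1 knockout minus that of the METTL3 knockout was -7.72, with group means of 1.81, 9.53 and, in control, 2.78. On JUNB the difference was -3.35, with group means of 3.69, 7.03 and, in control, 4.36. These JUNB means took the highest fold of each library, which in control came from peaks at different positions. With the other control peak, of fold 3.29 in control 1 and 3.60 in control 2, the CFL1 knockout values of 3.41 and 3.96 overlapped control.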

How the results depend on the processing

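Values are counts of member sites unless named otherwise. At a −log10 q of at least 5 or 10, 1 site, on FOS, was lost in the METTL3 knockout. At 10, sites in all libraries fell from 12 to 10 and those with higher fold in the METTL3 knockout from 7 to 5. Of the counts of peaks per gene and group, 4 then moved by over 1.5 times or to 0, and 26 did not. Among the 4, peaks on ATF3 fell from 2.5 to 0.5 per control library and from 2 to 0.5 per CFL1 knockout library. At a fold of at least 4, 4 sites were lost for CFL1 and 1 for METTL3, 5 were gained for METTL3, 1 was found in all libraries, and the counts of sites with higher or lower fold were 0 for both knockouts; peaks per member gene and library were 0.733 in place of 1.80. Fewer peaks entered at this fold, and 20 of the counts of peaks per gene and group moved by over 1.5 times or to 0, while 10 did not. With summit windows, 8 and 6 sites were lost and 6 and 7 gained in the CFL1 and METTL3 knockouts, 4 were found in all libraries, 3 had a lower fold in the CFL1 knockout and 2 a higher fold in the METTL3 knockout. Joining peaks within 100 bp moved no count of sites by over 1.5 times, nor did widening the genes by 1000 bp, which moved the peaks on FOSL1 per METTL3 knockout library from 1.5 to 2.5. Widening the genes, or including all lines of a joined site (chosen after seeing the data), gave 8 sites with higher and 2 with lower fold in the METTL3 knockout, as FOSL1 turned from lower to higher.

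Without each library in turn, sites lost ran from 0 to 4 in either knockout, sites gained from 1 to 3 in the CFL1 and 3 to 4 in the METTL3 knockout, and sites in all libraries from 11 to 13. Sites with higher fold ran from 1 to 4 in the CFL1 and 6 to 8 in the METTL3 knockout, those with lower fold from 5 to 6 and 3 to 4, and peaks per member gene and library from 1.70 to 1.84. With 1 library left in a group, the rules for lost and gained asked for that library alone. The 4 losses came without control 1, at sites on FOSL1, ATF3 and KLF6 that control 2 alone held. Without control 2 there was 1 in each knockout, on ATF3, where the control 1 peak then stood apart. Without METTL3 knockout 5 there was 1 in that knockout, on FOS. Gains in the CFL1 knockout were 2 without control 2 and 3 without CFL1 knockout 5. The added sites in the latter case, on FOS and FOSL1, were held by CFL1 knockout 3 alone. Higher folds in the CFL1 knockout were 2, 3, 4 and 2 without control 1, control 2, CFL1 knockout 3 and CFL1 knockout 5. The sites behind the other shifts are not given here. No paired analysis was possible because knockout peaks are numbered 3 and 5, which match no replicate of the labels.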
